A study of Danio rerio with 6 samples.

Results

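The genes described are 9 genes of T and natural killer lymphocytes, lck, zap70, cd4-1, cd8a, il2rb, tbx21, ikzf1, runx3 and sla2, in zebrafish neuroblastomas. They were chosen by symbol, with gata3 left out, and all 9 were present among the 14781 gene symbols of the deposited count table. Of these, 8 were found under the same symbol, and cd4-1 was found as cd4, which the RefSeq gene table lists as its older symbol. The sla2 row was kept as deposited, although RefSeq lists sla2 as an older symbol of sla2b. RNA came from tumours of the peripheral sympathetic nervous system of transgenic fish, with 3 libraries from tumours with MYCN overexpression and gas7 knockout (called knockout here) and 3 from tumours with MYCN overexpression only (called MYCN-only). All 6 tumours therefore carried the MYCN transgene. Its promoter, the gas7 allele, the age of the fish and whether animals were pooled are not given in the labels, and nothing there says how the replicates are related, so p-values measure only the spread between these libraries.

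T lymphocytes carry a T cell receptor whose coreceptors, CD4 on helper cells and CD8 on cytotoxic cells, bind the kinase LCK. LCK phosphorylates the receptor chains, ZAP-70 docks on them and passes the signal on, and the adaptor SLA2 dampens the signal; these roles are known mainly from mouse and human cells. In zebrafish the lck promoter is used to label T cells, and MYCN-driven neuroblastoma usually arises in the interrenal region, beside the blood-forming tissue of the head kidney.

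Libraries held 12054844 to 33305326 counts, and levels are given as counts per 1000000 (CPM) after TMM scaling of the library sizes. The 3 knockout libraries did not form one kind: knockout libraries 2 and 3 held ovary and egg transcripts. The summed level of the ovary and oocyte list was 8550 and 11100 CPM there, against 73.8 CPM in knockout library 1 and 42.5 to 140 CPM in the MYCN-only libraries. Knockout library 1 held the highest summed levels of macrophage genes (2520 CPM, against 805 to 2200 CPM elsewhere) and neutrophil genes (2000 CPM, against 743 to 1280 CPM elsewhere). The labels do not say which zebrafish gas7 copy was knocked out. The table held gas7a, for which RefSeq gives gas7 as an older symbol, and its groups overlapped, at 14.8, 13.9 and 10 CPM in knockout libraries 1 to 3 and, in the same order, 23, 9.69 and 32.7 CPM in the MYCN-only tumours. Its log2 difference was -0.76 (SE 0.47, edgeR quasi-likelihood adjusted p = 0.411), and since the allele is not given, this transcript level is no check of the label. The noradrenergic markers th and dbh were detected in all libraries, at means of 3540 ± 1190 and 2940 ± 1960 CPM (SD, n = 3) in the knockout libraries and of 2590 ± 1090 and 2770 ± 457 CPM (SD, n = 3) in the MYCN-only libraries. Of the 23 tested genes of the noradrenergic list, 9 were higher and 14 lower in the knockout libraries. In every knockout library 7 of them were lower than in any MYCN-only library, where 12.3% of all genes tested were. The reverse held for 0 of them, where it held for 11.6% of all genes tested.

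All 9 lymphocyte genes were detected, cd8a in 5 of the 6 libraries. Counts of cd8a were too few for it to be tested, and none of the others passed the test between genotypes. The kinase zap70 and the adaptor sla2 were higher in every knockout library than in any MYCN-only library, at 1.84-fold and 2.88-fold. The kinase lck and the transcription factor runx3 were lower in every knockout library, at 1.48-fold and 2.47-fold. The coreceptor genes cd4-1 and cd8a, the cytokine receptor il2rb and the transcription factors tbx21 and ikzf1 overlapped between the groups. Together the 9 genes took 1428 to 1648 counts in the knockout libraries and 743 to 1144 counts in the MYCN-only libraries.

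Of the 9 genes, 8 had enough counts to be tested with edgeR's quasi-likelihood test at a Benjamini-Hochberg adjusted p under 0.05, and 0 of the 8 passed. This stands against 0.0% of the 12821 genes tested. At an unadjusted p under 0.05, sla2 was higher, against 11.5% of all genes tested, and runx3 was lower, against 7.57% of them. By libraries that did not overlap, 2 of the 8 were higher, where 11.6% of all genes were, and 2 of the 8 were lower, where 12.3% were. DESeq2 called 0 of the 8 and 10.4% of the genes it tested. With knockout library 1 left out, edgeR called 0 of the 8 and 14.7% of the genes tested. With 3 libraries against 3, the exact two-sided permutation test cannot give a p below 0.1, the value that lck, zap70, runx3 and sla2 had.

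**Figure D1:**
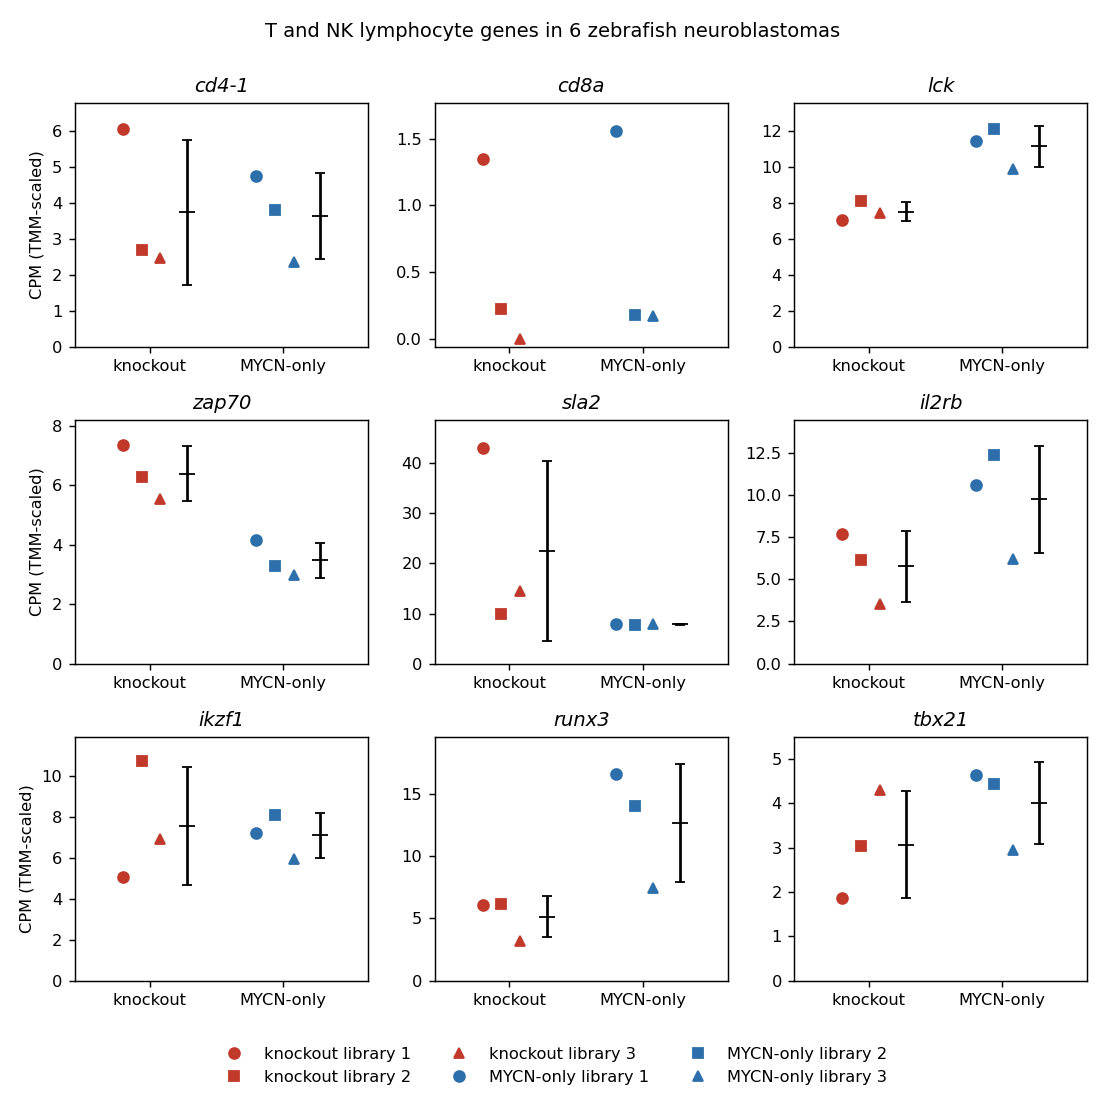
Level of each of the 9 lymphocyte genes in every library, in CPM (vertical axis), with points for the 3 knockout and 3 MYCN-only libraries, their shapes giving the library number, and the mean with its SD for each group, except for cd8a, which is shown by its points alone. The knockout points of zap70 and sla2 lie above all MYCN-only points, those of lck and runx3 lie below them, and in the cd8a panel library 1 of both genotypes stands above the others, at 1.35 and 1.56 CPM.

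The coreceptors come first. The CD4 coreceptor gene of helper T cells, cd4-1, had 117, 72 and 76 counts in the 3 knockout libraries, given here and throughout in the order of their numbers, and 79, 43 and 41 counts in the MYCN-only ones. As CPM these were 6.07, 2.69 and 2.47 CPM in the knockout libraries against 4.75, 3.82 and 2.37 CPM in the MYCN-only libraries. Library 1 was the highest of its group in both genotypes and the groups overlapped. The means were 3.75 ± 2.02 and 3.64 ± 1.2 CPM (SD, n = 3), a log2 difference of 0.04 (SE 0.54, edgeR quasi-likelihood adjusted p = 0.978). Another zebrafish CD4 gene, cd4-2.1, was at 4, 1.34 and 2.8 CPM in the knockout and 2.64, 1.33 and 1.56 CPM in the MYCN-only libraries, and also overlapped. For both CD4 genes library 1 was the highest of each group.

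The CD8 alpha chain gene of cytotoxic T cells, cd8a, had 26, 6 and 0 counts in the knockout libraries and 26, 2 and 3 counts in the MYCN-only libraries. It did not pass the filter on low counts and was not tested. In knockout library 1 the level was 1.35 CPM, with an exact Poisson 95% interval of 0.882 to 1.98 CPM. In MYCN-only library 1 it was 1.56 CPM, with an interval of 1.02 to 2.29 CPM. Both intervals lie above those of the other 4 libraries, the highest upper bound of which was 0.642 CPM, in MYCN-only library 2. In knockout library 3 no read was counted, and the upper bound of the same interval was 0.12 CPM. These intervals cover counting error only. The level of cd8a thus separated library 1 of each genotype from its fellow libraries, and it did not separate the genotypes. The ratio of cd8a to cd4-1 counts was 0.222 and 0.329 in library 1 of the knockout and MYCN-only tumours, and 0 to 0.0833 in the other libraries.

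Among the kinases of the receptor pathway, lck had 135, 216 and 228 counts in the knockout libraries and 190, 136 and 171 counts in the MYCN-only libraries. Its levels were 7.01, 8.07 and 7.42 CPM in the knockout libraries, a narrow range. In the MYCN-only libraries they were 11.4, 12.1 and 9.87 CPM, each above every knockout library. The means of lck were 7.5 ± 0.534 against 11.1 ± 1.14 CPM (SD, n = 3), a log2 difference of -0.57 (SE 0.29, edgeR quasi-likelihood adjusted p = 0.328). In the zebrafish gene table lck lies on chromosome 17 and overlaps zgc:154055 and LOC137488103. The strand setting of the counting is not given, so reads of overlapping genes cannot be told apart. The row of zgc:154055 held 31.7 to 46.0 CPM in the knockout and 46.0 to 49.4 CPM in the MYCN-only libraries (log2 difference -0.38, edgeR quasi-likelihood adjusted p = 0.419). Its part in the lck counts was not tested. RefSeq also lists overlapping genes for cd8a, il2rb, sla2 and runx3, and none for zap70, cd4-1, tbx21 and ikzf1.

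The tandem-SH2 kinase zap70, which acts directly after lck, had 142, 168 and 170 counts in the knockout libraries and 69, 37 and 52 counts in the MYCN-only libraries. Its levels were 7.37, 6.28 and 5.54 CPM in the knockout libraries and 4.15, 3.29 and 3 CPM in the MYCN-only libraries. The lowest knockout library was above the highest MYCN-only library. The means were 6.39 ± 0.924 and 3.48 ± 0.596 CPM (SD, n = 3), a log2 difference of 0.88 (SE 0.37, edgeR quasi-likelihood adjusted p = 0.262).

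Among adaptors, sla2, which in mouse and human lymphocytes recruits the ubiquitin ligase CBL and lowers receptor signalling, had the largest SD, in CPM, of the 9 genes among the knockout libraries. It had 830, 269 and 446 counts there, or 43.1, 10 and 14.5 CPM. In the MYCN-only libraries it had 131, 86 and 138 counts, or 7.87, 7.64 and 7.96 CPM. The MYCN-only libraries were nearly equal, and all knockout libraries stood above them, library 1 by far. The means were 22.6 ± 17.9 and 7.83 ± 0.164 CPM (SD, n = 3), a log2 difference of 1.52 (SE 0.57, edgeR quasi-likelihood adjusted p = 0.232). Without knockout library 1 the difference was 0.65 (edgeR quasi-likelihood adjusted p = 0.204). Leaving out knockout libraries 2 and 3 together gave 2.47, with the spread taken from the MYCN-only libraries alone, so no p-value is given. Knockout library 1, the highest for sla2, was also the highest for the macrophage gene mpeg1.1 (107 CPM, against 13.4 to 27.6 CPM elsewhere) and the neutrophil gene mpx (297 CPM, against 25.2 to 52.2 CPM elsewhere). Not every macrophage or neutrophil gene had this order. The level of lyz was lowest in knockout library 1, at 10.3 CPM. From the macrophage list, ncf1 was highest in knockout library 2, at 65.7 CPM, against 43.8 CPM in knockout library 1. The part of macrophages and neutrophils in the sla2 level was not tested.

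The receptor chain gene il2rb encodes the beta chain shared by the interleukin-2 and interleukin-15 receptors, on which natural killer cells and memory T cells depend in mammals. It had 148, 165 and 108 counts in the knockout libraries and 176, 139 and 108 counts in the MYCN-only libraries. Its levels were 7.68, 6.16 and 3.52 CPM against 10.6, 12.4 and 6.23 CPM. Library 3 was the lowest of both groups, and MYCN-only library 3 lay between knockout libraries 2 and 1, so the groups overlapped. The log2 difference was -0.75 (SE 0.45, edgeR quasi-likelihood adjusted p = 0.399).

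Of the transcription factors, runx3 takes part in CD4 silencing and in the cytotoxic programme of mouse CD8 T cells and natural killer cells. It had 117, 165 and 99 counts in the knockout libraries, or 6.07, 6.16 and 3.22 CPM. In the MYCN-only libraries it had 276, 159 and 129 counts, or 16.6, 14.1 and 7.44 CPM. Library 3 was the lowest of both groups, as for il2rb, and no knockout library reached the lowest MYCN-only library. The means were 5.15 ± 1.67 and 12.7 ± 4.73 CPM (SD, n = 3), a log2 difference of -1.30 (SE 0.45, edgeR quasi-likelihood adjusted p = 0.215). From DESeq2, the adjusted p of runx3 was 0.0683. In mice the gene is also known from sensory neurons, and its cell of origin in these tumours was not tested.

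The T-box factor tbx21, which directs type 1 helper and natural killer cell genes, had 36, 81 and 132 counts in the knockout and 77, 50 and 51 counts in the MYCN-only libraries. Its levels were 1.87, 3.03 and 4.3 CPM against 4.63, 4.44 and 2.94 CPM, and the groups overlapped. The log2 difference was -0.38 (SE 0.48, edgeR quasi-likelihood adjusted p = 0.702). The zinc finger factor ikzf1 (Ikaros), needed for lymphocyte development and also expressed in blood progenitors, had 97, 286 and 212 counts in the knockout and 120, 91 and 103 counts in the MYCN-only libraries. Its levels were 5.04, 10.7 and 6.9 CPM against 7.21, 8.09 and 5.94 CPM, with the lowest and the highest library both among the knockouts. The log2 difference was 0.09 (SE 0.40, edgeR quasi-likelihood adjusted p = 0.923).

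**Figure D2:**
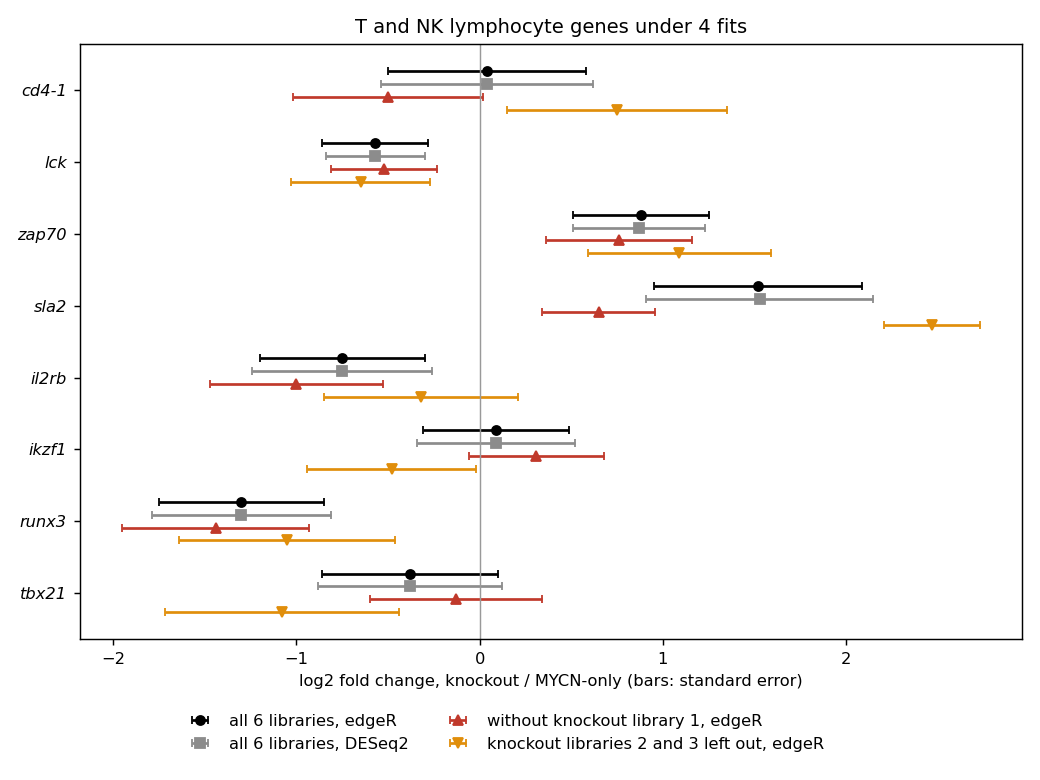
Log2 difference of knockout from MYCN-only (horizontal axis) for each of the 8 tested lymphocyte genes in 4 fits, with bars for the SE. The fits are edgeR and DESeq2 on all 6 libraries, edgeR without knockout library 1, and edgeR without knockout libraries 2 and 3. In the last fit only knockout library 1 remained, so the spread behind its bars came from the MYCN-only libraries alone. The points of lck, runx3, il2rb and tbx21 lie below 0 and those of zap70 and sla2 above it, with sla2 running from 0.65 to 2.47, while those of cd4-1 (-0.50 to 0.75) and ikzf1 (-0.48 to 0.31) lie on both sides.

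Over all 14 alternatives the log2 differences of lck (-0.75 to -0.48), runx3 (-1.57 to -1.05), il2rb (-1.0 to -0.32) and tbx21 (-1.08 to -0.13) stayed below 0, and those of zap70 (0.70 to 1.09) and sla2 (0.65 to 2.47) above it. For lck, runx3, zap70 and sla2, whose groups did not overlap, leaving out libraries could hardly turn the direction. The other alternatives refitted the same libraries, so the kept directions are a description. No alternative took any of the 8 genes past the adjusted threshold. In bulk tumour RNA, fewer lymphocytes and less RNA of a gene per lymphocyte cannot be told apart. As a description of the lymphocyte genes among themselves, their mean log2 CPM over the 8 tested genes was 2.84, 2.61 and 2.4 in the knockout libraries and 2.93, 2.87 and 2.38 in the MYCN-only libraries. The libraries overlapped, and the difference of the means was -0.11, with SDs of 0.22 and 0.30 (n = 3). The summed level of the 9 genes was 85.6, 53.3 and 47.9 CPM in the knockout and 68.7, 66 and 45.9 CPM in the MYCN-only libraries. The high sum of knockout library 1 included the 43.1 CPM of sla2.

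The neighbouring kinases lck and zap70 differed in opposite directions, so the ratio of their counts, which does not depend on library scaling, was computed after their values had been seen. There were 1.05, 0.778 and 0.746 zap70 counts for each lck count in the knockout libraries, with exact binomial 95% intervals of 0.825 to 1.34, 0.632 to 0.956 and 0.608 to 0.913. In the MYCN-only libraries there were 0.363, 0.272 and 0.304, with intervals of 0.272 to 0.481, 0.184 to 0.394 and 0.219 to 0.417. These intervals, too, cover counting error only. Because zap70 was higher and lck lower in every knockout library, the ratio could not overlap, and its difference of 1.45 on the log2 scale, with SDs of 0.27 and 0.21 (n = 3), is given as a description without a test. Such ratios were common: against lck, 34.1% of all genes tested were higher without overlap in the knockout libraries and 2.95% were lower. Of the 8 other lymphocyte genes set against lck, 3 were higher without overlap (zap70, sla2 and ikzf1) and 0 were lower, a share near that of all genes. The ratio of il2rb to lck overlapped, at 0.474 to 1.1 in the knockout and 0.632 to 1.02 in the MYCN-only libraries.

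**Figure D3:**
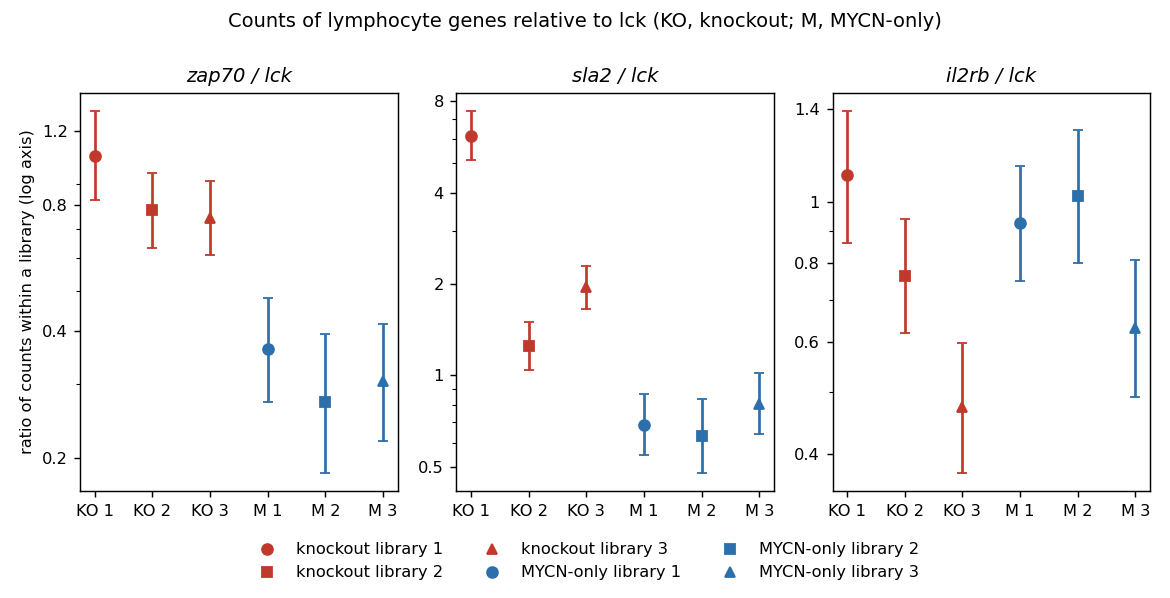
Counts of zap70, sla2 and il2rb divided by the counts of lck in the same library (vertical axis, log scale), for the 3 knockout and 3 MYCN-only libraries, with exact binomial 95% intervals as bars. The zap70 ratios are 0.746 to 1.05 in the knockout and 0.272 to 0.363 in the MYCN-only libraries, those of sla2 are 1.25 to 6.15 and 0.632 to 0.807, and those of il2rb overlap.

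Set against the mean log2 level of 21 pan-leukocyte genes of the same library, zap70 was again higher without overlap, by 0.79 on the log2 scale, as 3.01% of all genes tested were. The genes il2rb and runx3 were lower without overlap, with differences of -0.83 and -1.34, as 7.44% of all genes were. The values of lck (-0.63) and sla2 (1.15) overlapped on that scale. The pan-leukocyte genes themselves had a median log2 difference of 0.27, with 14 of 21 higher and 7 lower, and 0 past the edgeR threshold, the unadjusted p of 0.05 or the DESeq2 threshold. Of these, coro1a was at 60.9 ± 24.2 and 55.2 ± 10.6 CPM and lcp1 at 111 ± 50.9 and 98.8 ± 28.2 CPM (SD, n = 3) in the knockout and MYCN-only libraries.

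The other genes of the T cell receptor pathway gave no called gene either. Of 61 listed, 31 were in the table and all 31 were tested with edgeR's quasi-likelihood test; 12 were higher, 19 lower and 0 past the threshold, and 0 had an unadjusted p under 0.05 or were called by DESeq2. Their median log2 difference was -0.07, beside 0.04 for all 12821 genes tested and -0.17 for the 8 tested lymphocyte genes. Without overlap, 1 of the 31 was lower, where 12.3% of all genes were, and 1 was higher, where 11.6% were. The lower one was the adaptor gene lat, a substrate of ZAP-70, at 2.79 ± 0.348 against 3.75 ± 0.504 CPM (SD, n = 3). Its gap was narrow, with the highest knockout library at 3.14 CPM and the lowest MYCN-only library at 3.17 CPM (edgeR quasi-likelihood adjusted p = 0.586). The higher one was the kinase gene csk, whose product holds LCK inactive, at 103 ± 8.47 against 86.6 ± 8.43 CPM (SD, n = 3). The receptor zeta chain gene cd247 was at 0.478 ± 0.162 and 1.26 ± 0.948 CPM (SD, n = 3) in the knockout and MYCN-only libraries, and overlapped (edgeR quasi-likelihood adjusted p = 0.363). The related cd247l, at 1.46 ± 0.201 and 2.41 ± 1.87 CPM, and the adaptor gene skap2, at 22.7 ± 8.33 and 13.8 ± 2.66 CPM (SD, n = 3), also overlapped.

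Of 42 transcription factors of the T lineage, 34 were in the table and 32 were tested with edgeR's quasi-likelihood test, of which 11 were higher, 21 lower and 0 called, with a median of -0.25. Without overlap, 10 of the 32 were lower, where 12.3% of all genes were, and 3 were higher, where 11.6% were. The lower ones were bcl11ba, tox, tox2, rorca, rorcb, stat4, irf4a, prdm1a, tcf3a and myb, and the higher ones foxp3a, id2a and id3. At an unadjusted p under 0.05, 3 were higher, where 11.5% of all genes were, and 4 lower, where 7.57% were. DESeq2 called 3 higher and 2 lower, where it called 10.4% of all genes. The HMG-box factor tox2 was at 2.86, 3.81 and 3.71 CPM in the knockout and 9.73, 11.8 and 7.44 CPM in the MYCN-only libraries. Its log2 difference was -1.48 (edgeR quasi-likelihood adjusted p = 0.178). The repressor prdm1a (Blimp-1) was at 2.39, 3.66 and 2.77 CPM against 8.23, 14.3 and 6.52 CPM, a log2 difference of -1.72 (edgeR quasi-likelihood adjusted p = 0.183). The E protein inhibitor gene id3 was at 42.3 ± 1.28 against 20.2 ± 1.1 CPM and id2a at 69.9 ± 6.89 against 36.9 ± 3.79 CPM (SD, n = 3), both with an edgeR quasi-likelihood adjusted p of 0.174. Outside lymphocytes, tox, prdm1a, id2a and id3 act in other tissues, the nervous system among them, and their cell of origin here was not tested. The gene of the T cell factor tcf7 was at 1.19 ± 0.772 against 3.49 ± 2 CPM (SD, n = 3), and overlapped (edgeR quasi-likelihood adjusted p = 0.285). Its relative lef1, at 17.2 ± 9.56 against 10.2 ± 6.99 CPM (SD, n = 3), also overlapped between the groups.

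Of 29 cytokine receptor and JAK-STAT genes, 19 were in the table and 18 tested with edgeR's quasi-likelihood test, with 10 higher, 8 lower and 0 called (1 at an unadjusted p under 0.05, and 0 called by DESeq2), at a median of 0.36. Without knockout library 1 the median was -0.15. The 1 gene at an unadjusted p under 0.05 was higher, where 11.5% of all genes tested were. The cytokine-induced inhibitor gene cish was at 99.6, 19.7 and 29.6 CPM in the knockout and 12, 21.3 and 8.14 CPM in the MYCN-only libraries, and overlapped (edgeR quasi-likelihood adjusted p = 0.234). Another such inhibitor gene, socs1a, was at 106, 32 and 45 CPM against 10.2, 43.6 and 5.42 CPM, and knockout library 1 was the highest for both. The gene il2rgb, a copy of the common gamma chain that pairs with the il2rb product, was the 1 gene without overlap, at 1.97, 2.58 and 2.31 CPM in the knockout and 2.94, 4.44 and 4.27 CPM in the MYCN-only libraries. It was thus lower in the knockout libraries, with a log2 difference of -0.76 (SE 0.42, edgeR quasi-likelihood adjusted p = 0.361). Of all genes tested, 12.3% were lower without overlap. Its other copy, il2rga, at 14.6 ± 6.68 and 14.7 ± 5.84 CPM, and the receptor gene il10ra, at 20.6 ± 12.2 and 12.8 ± 2.15 CPM (SD, n = 3), overlapped. Of 58 cytotoxic effector and lymphocyte surface genes, 32 were in the table and 24 tested, with 11 higher, 13 lower, 0 called (2 at an unadjusted p under 0.05, and 0 called by DESeq2) and a median of -0.22. The 2 genes at an unadjusted p under 0.05 were lower, where 7.57% of all genes were. Without overlap, 5 of the 24 were lower, where 12.3% of all genes were, and 1 was higher, where 11.6% were. The lower ones were the granzyme genes gzm3.3 and gzm3.4, the perforin gene prf1.5, the cytokine gene il13 and ccr7, the gene of a homing receptor of naive T cells in mammals. For il13, gzm3.3 and gzm3.4 the gap was narrow. Their highest knockout libraries were at 0.779, 0.935 and 1.92 CPM and their lowest MYCN-only libraries at 0.781, 0.978 and 1.96 CPM (edgeR quasi-likelihood adjusted p = 0.523, 0.37 and 0.381). The gene il13 had 15, 6 and 15 counts in the knockout and 13, 10 and 16 counts in the MYCN-only libraries. The higher one was the chemokine receptor gene cxcr3.1. The level of prf1.5 was 0.847 ± 0.602 against 2.84 ± 0.914 CPM (SD, n = 3), a log2 difference of -1.75 (edgeR quasi-likelihood adjusted p = 0.245). The level of ccr7 was 0.685 ± 0.207 against 1.94 ± 0.853 CPM (SD, n = 3), a log2 difference of -1.48 (edgeR quasi-likelihood adjusted p = 0.256). The granzyme gene gzm3 had 1 to 8 counts in the knockout and 6 to 21 counts in the MYCN-only libraries and was not tested. The cytokine gene tnfa went the other way, at 2.02, 2.99 and 0.456 CPM in the knockout and 0.12, 0.356 and 0.692 CPM in the MYCN-only libraries, and overlapped (edgeR quasi-likelihood adjusted p = 0.269).

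**Figure D4:**
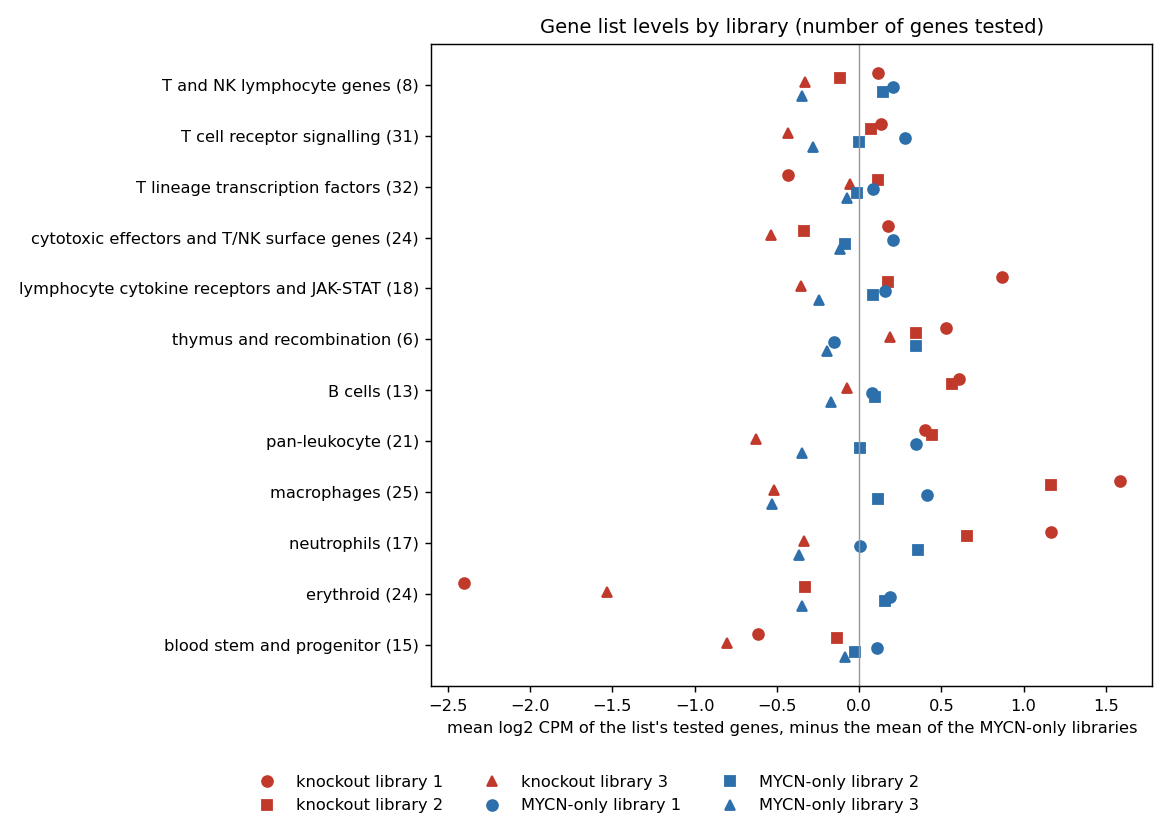
Mean log2 CPM of the tested genes of each list, minus the mean of the MYCN-only libraries (horizontal axis), with 1 point for each of the 3 knockout and 3 MYCN-only libraries, for the lymphocyte genes and 11 lists of their pathway and of other blood cells (vertical axis, number of genes in brackets). The libraries of the lymphocyte genes overlap, with a difference of the means of -0.11, while knockout library 1 stands furthest right for macrophages and neutrophils and furthest left for erythroid genes.

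Markers of other cells differed between the same libraries. Of all 12821 genes tested, 6716 were higher in the knockout libraries and 6105 lower. Macrophage genes were higher in 21 of the 25 tested, with a median log2 difference of 1.0 that was 0.22 without knockout library 1. Neutrophil genes were higher in 14 of 17, with a median of 0.67 that was 0.05 without that library. The neutrophil and macrophage enzyme gene lyz differed the other way from mpx, at 10.3, 80.4 and 62.7 CPM in the knockout and 102 to 112 CPM in the MYCN-only libraries. The median of the 8 tested lymphocyte genes was -0.17, and -0.31 without it. That median depended on other single libraries too, being 0.15 without knockout library 3 and -0.56 without MYCN-only library 3. Erythroid genes were lower in 23 of 24 (median -0.80, and -1.73 without knockout library 2), their summed level being 720 to 2450 CPM in the knockout and 2730 to 4170 CPM in the MYCN-only libraries. Kidney tubule genes were lower in 17 of 19 (median -1.21, and -2.07 without knockout library 1). In each of these lists 0 genes passed the edgeR quasi-likelihood test. At an unadjusted p under 0.05, 2 macrophage and 2 neutrophil genes were higher, where 11.5% of all genes tested were. In the same way 2 erythroid and 7 kidney genes were lower, where 7.57% were. DESeq2 called 2 macrophage genes and 1 neutrophil gene higher, 0 erythroid genes, and 5 kidney genes lower. It called 10.4% of all genes it tested. The 2 macrophage genes under the unadjusted threshold were ctss2.1 and grn2, neither highest in knockout library 1. Their levels in the knockout libraries were 170, 669 and 737 CPM and 5.09, 119 and 0.326 CPM. In the MYCN-only libraries ctss2.1 was at 22.1, 11.7 and 7.96 CPM and grn2 at 0.541, 0.711 and 0.577 CPM. For grn2, knockout library 3 was thus below every MYCN-only library, and knockout library 2 stood far above the others. B cell genes were higher in 9 of 13 (median 0.22, and 0.52 without knockout library 3). Their sums, 706 to 963 CPM in the knockout and 477 to 643 CPM in the MYCN-only libraries, were separated by xbp1, a gene of the secretory stress response in many cell types, at 285, 325 and 427 CPM against 81.3, 133 and 97.6 CPM. Without xbp1, left out after its values were seen, the sums overlapped, at 288 to 678 CPM in the knockout and 380 to 562 CPM in the others. The B cell factor pax5 was at 0 in knockout library 1 and in MYCN-only libraries 2 and 3. It had 47 and 17 counts in knockout libraries 2 and 3 and 2 counts in MYCN-only library 1, and was not tested. The part of these cells in the lymphocyte gene values was not tested.

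The genes most like lck over the 6 libraries, by Pearson's r of log2 CPM among all genes tested, were ptn (0.995), adh5 (0.994), tox2 (0.993), ebf2 (0.99) and galnt10 (0.986), followed by prdm1a, tnni3k, smarcd3b, arid3c and pbx3b at 0.98 to 0.984. With the mean of the standardised lymphocyte genes, zgc:171711 (0.979) and nt5c2l1 (0.977) stood first, followed by taar12c, trim8, fam169aa, cntf, stk38a, si:ch211-132b12.3, ccdc187 and krt17 at 0.958 to 0.977. These are descriptions over 6 points that share their libraries. Among the lymphocyte genes, il2rb and runx3 varied together (r = 0.94), as did lck with runx3 (0.882). The r of lck was -0.847 with zap70 and -0.79 with sla2, and that of zap70 with sla2 was 0.784. These pairs are named for having the largest r in size. The next was tbx21 with sla2 (-0.756). Because lck and runx3 were lower and zap70 and sla2 higher in every knockout library, such r values partly restate the group differences.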

How the data were processed

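Total RNA of at least RIN 7 was sequenced as stranded, paired-end total RNA libraries, per the labels' protocols. For danRer10 the authors used featureCounts 1.4.6, Subread, TopHat2 2.0.14 and Bowtie2 2.2.6, per the submitters' processing notes. Not given in the sources used here are the annotation, the strand setting and how multiply mapped reads were counted. The deposited values are raw counts per gene symbol, with 0 columns without a sample. Names and gene overlaps came from the RefSeq table of assembly GRCz12tu, which is not the build of the counts, so no coordinates are given.

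The 6 libraries were grouped by the genotype in the labels. The filterByExpr rule on low counts kept 12821 genes. The test was edgeR 4.0.16 quasi-likelihood (R 4.3.3, limma 3.58.1) with TMM scaling, genotype as the only term, and Benjamini-Hochberg adjustment over all genes tested, with a threshold of 0.05. Libraries of a group varied with a biological coefficient of variation of 52.5%. CPM used TMM-scaled library sizes, and log2 CPM a prior count of 2. Each SE is the log2 fold change divided by the root of its F statistic. DESeq2 1.42.0, limma-voom, other scalings and filters, a replicate block and left-out libraries were alternatives. The fitting steps were tested on simulated data.

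The lymphocyte genes, the other gene lists and the settings were chosen with earlier results of these data known. Genes to name were all 9 lymphocyte genes, gas7a, up to 4 genes of each other list with the smallest unadjusted p, each list's first 2 markers, and the 10 genes most correlated with lck and with the mean of the lymphocyte genes. Of the B cell list, the pan-leukocyte list and the lists of cells other than lymphocytes, only some of these genes are named in the text. Genes of a list that did not overlap, neighbouring genes, cd4-2.1, lat, tnfrsf9a, ccr9a, ifng1 and the ratios were named after their values were seen. 1 gene of the same rule is not reported here. No replicate pair had counts that agreed within sampling noise.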

Additional observations from a re-analysis of the deposited data

How the results depend on the processing

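The number of all genes past the adjusted threshold depended on the method. It was 0 with edgeR, 1323 with DESeq2, 1 with limma-voom and 8 with the replicate number as a block. Leaving out knockout libraries 2 and 3 together left 1 knockout library, so no number is given for that fit. Leaving out 1 library at a time gave 0 to 1923 genes, the 1923 without knockout library 1 and 4 without MYCN-only library 2. None of the 8 tested lymphocyte genes was called in any of these, nor with genes matched by exact symbol only, which drops cd4-1 and was added after the data were seen. Of 112 log2 differences of lymphocyte genes under the alternatives, 103 kept their direction and 9 reversed, all of cd4-1 and ikzf1. Where groups did not overlap, as for lck, runx3, zap70 and sla2, leaving out libraries could hardly turn the direction. The cd4-1 value of 0.04 became -0.13 with upper-quartile scaling, -0.09 with limma-voom, -0.03 with the replicate block, -0.50 without knockout library 1 and -0.20 without MYCN-only library 3, and ran up to 0.27 with other single libraries left out. The ikzf1 value of 0.09 became -0.09 with upper-quartile scaling, -0.25 without knockout library 2, -0.02 without MYCN-only library 3 and -0.48 without knockout libraries 2 and 3, and ran up to 0.31 with other single libraries left out. The cause was not tested. Upper-quartile scaling moved the median of all genes by -0.18. Same-numbered libraries deviated from their group means with correlations of -0.0928, -0.153 and 0.19, and the labels' numbers were not taken to pair them. Differently numbered libraries were not compared in this way, so these values cannot exclude pairing. Of 224 list medians, 206 moved by less than the spread between libraries and 18 by more. Depth limits cd8a most, with 0 to 26 counts a library.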

Other observations

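None of the tested lymphocyte genes passed the test between genotypes. The untested cd8a varied more within each genotype than between the means of the genotypes. The costimulatory receptor gene tnfrsf9a (CD137), from the T cell receptor list, was highest in library 1 of each genotype, as was cd8a. Its levels were 227, 29.2 and 7.26 CPM in knockout libraries 1, 2 and 3 and 211, 56 and 8.6 CPM in MYCN-only libraries 1, 2 and 3. Levels of tnfrsf9a also fell from library 2 to library 3 in both genotypes, while cd8a had too few counts there for an order. The gene tnfrsf9a was singled out after its values were seen, and the labels say nothing of what library numbers share.

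The chemokine gene ccl25b, which attracts T cell precursors to the thymus, was at 180, 19.3 and 9.22 CPM in the knockout and 22.3, 20.7 and 9.58 CPM in the MYCN-only libraries, and the gene of its receptor, ccr9a, at 14, 22.8 and 4.46 CPM and 10.2, 7.2 and 5.42 CPM. The recombinase gene rag1 was at 3.17, 0.896 and 0.586 CPM and 0.541, 1.07 and 1.79 CPM. For these 3 genes the groups overlapped, and the high ccl25b value was that of knockout library 1. Of the 6 tested genes of the thymus and recombination list, prss16, which encodes a serine protease of the thymic cortex in mammals, was the 1 gene without overlap, at 47.7, 34.1 and 29.1 CPM in the knockout and 16, 17.1 and 17.5 CPM in the MYCN-only libraries. Its log2 difference was 1.13 (SE 0.27, edgeR quasi-likelihood adjusted p = 0.174), and it was the list's 1 call by DESeq2. Of all genes tested, 11.6% were higher without overlap, and DESeq2 called 10.4% of those it tested. The second recombinase gene, rag2, at 40.6 ± 16.5 and 42.7 ± 18.3 CPM (SD, n = 3), and the Notch ligand gene dll4, at 36.6 ± 12.1 and 48.4 ± 8.96 CPM (SD, n = 3), overlapped. In every library rag2, at 29 to 63.8 CPM, stood far above rag1, and the cell of origin of rag2 was not tested. The homing receptor gene sell was at 23.4 CPM in MYCN-only library 1 and at 0.411 to 1.78 CPM in the other 5 libraries. The gene of the cytokine interferon gamma, ifng1, had 4 to 24 counts in 4 libraries, 2 in MYCN-only library 3 and 0 in MYCN-only library 2, too few to be tested.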
